A study of Mus musculus with 6 samples.

Results

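Ezh1, Ezh2, Eed, Suz12, Ring1, Rnf2, Bmi1, Cbx2 and Cbx8 encode subunits of the Polycomb repressive complexes, and H3K4me3 peaks at these 9 genes were examined among 21883 protein-coding genes on the main chromosomes. The members were picked by symbol as subunits of these complexes, with earlier results of these data known. H3K4me3, a histone mark of active and poised gene starts, was mapped by ChIP-seq in cells that express Lgr5, a marker of progenitors among cochlear supporting cells, sorted by green fluorescence from cochleae of C57BL/6 mice. The mice carried an Lgr5-EGFP-creERT2 reporter, were of either sex and were killed at postnatal day 0 to 3. Their cochleae were cultured with growth factors that included bFGF and EGF. One group, with 2 libraries, was treated with neomycin, an aminoglycoside that damages hair cells, for 12 h, and the other, also with 2 libraries, was untreated. Both groups carried the same reporter allele and were cultured in the same medium, and the labels state neither how many mice each library pooled nor whether replicates were separate cultures, so a p-value here measures only the spread between these libraries. The deposited names of the untreated lists read H3K4me2, while the labels give H3K4me3 and the same antibody for all 4 libraries, which leaves some doubt over the mark in those lists.

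Polycomb repressive complex 2 (PRC2) methylates histone H3 to give H3K27me3. EZH1 and EZH2 are its alternative catalytic subunits, EED binds the methylated product and stimulates the enzyme, and SUZ12 holds the complex together. In complex 1 (PRC1), RING1 and RNF2 (RING1B) are ubiquitin ligases for histone H2A, BMI1 (PCGF4) is a partner that shapes their activity, and the chromodomain proteins CBX2 and CBX8 bind H3K27me3. Both complexes hold developmental regulators silent, and BMI1 is known in the cochlea for a part in hair cell survival and in the proliferation of supporting cells. The peaks described here lie at the genes of these enzymes and give no measure of H3K27me3 itself.

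A start site was taken from RefSeq promoter entries (GRCm38.p6, the assembly of mm10), which covered 8 of the 9 genes. Cbx2 had no entry, and its start was taken as the gene end with peaks in more libraries. The 4 starts printed here were chosen because they span the range of CpG content and peak layout among the genes. Each runs 5′ to 3′ along the gene, from 250 bases before the start base to the end of the 50 bases that begin with it, and capitals mark CpG dinucleotides, the sequence context in which H3K4me3 is typically laid down.
Ring1, chr17:34024631-34024930, minus strand: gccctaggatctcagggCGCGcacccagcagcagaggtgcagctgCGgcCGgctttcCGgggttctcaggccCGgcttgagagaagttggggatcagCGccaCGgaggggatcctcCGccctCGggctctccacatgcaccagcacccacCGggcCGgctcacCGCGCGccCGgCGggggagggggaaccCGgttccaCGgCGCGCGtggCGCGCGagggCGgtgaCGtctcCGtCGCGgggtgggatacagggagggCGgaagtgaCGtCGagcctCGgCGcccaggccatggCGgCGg
Suz12, chr11:79992856-79993155, plus strand: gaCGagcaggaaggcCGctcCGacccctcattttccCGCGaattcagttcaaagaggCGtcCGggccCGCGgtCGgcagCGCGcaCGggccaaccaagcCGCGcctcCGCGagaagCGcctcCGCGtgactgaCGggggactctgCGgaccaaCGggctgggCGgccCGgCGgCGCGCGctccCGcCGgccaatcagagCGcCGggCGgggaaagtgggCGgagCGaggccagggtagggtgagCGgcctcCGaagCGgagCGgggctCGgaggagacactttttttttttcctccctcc
Ezh2, chr6:47594981-47595280, minus strand: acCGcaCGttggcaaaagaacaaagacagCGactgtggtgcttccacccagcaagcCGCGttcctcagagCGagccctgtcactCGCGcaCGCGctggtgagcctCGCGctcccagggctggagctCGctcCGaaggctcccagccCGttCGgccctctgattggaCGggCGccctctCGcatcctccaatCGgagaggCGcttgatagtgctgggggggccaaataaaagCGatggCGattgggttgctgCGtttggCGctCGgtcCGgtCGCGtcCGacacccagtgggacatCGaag
Eed, chr7:89980927-89981226, minus strand: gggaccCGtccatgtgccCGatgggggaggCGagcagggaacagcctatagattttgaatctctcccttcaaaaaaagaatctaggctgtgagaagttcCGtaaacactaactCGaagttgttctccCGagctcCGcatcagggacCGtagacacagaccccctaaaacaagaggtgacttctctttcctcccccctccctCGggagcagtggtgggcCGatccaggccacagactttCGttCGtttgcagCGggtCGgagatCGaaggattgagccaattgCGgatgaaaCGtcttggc
Suz12 had 41 CpGs and 71.0% G+C in these 300 bases, Ring1 had 37 and 74.0%, Ezh2 had 31 and 64.3%, and Eed had the fewest, 17 and 54.7%. The other 4 starts held 23 (Ezh1), 30 (Rnf2), 23 (Bmi1) and 24 (Cbx8) CpGs. Over 17491 protein-coding genes with an entry the median was 13 CpGs, against 27 for the 8 genes here. Searched on both strands, an E2F-type motif (TTTCCCGC, TTTGGCGC, TTTCGCGC or TTTGCCGC) occurred at Ezh2, beginning 3 bases after the start base, and at Suz12, beginning 219 bases before it; 2.94% of all these promoters held one. The box CCAAT occurred 3 times at Ezh2, 2 times at Cbx8 and once each at Eed and Suz12, against 39.2% of promoters with at least 1. A GC box (GGGGCGGGG) occurred at Bmi1 alone, against 15.5% of promoters, and TATAAA at none of these starts, against 13.3%. No other motif was searched. A match is a description of these letters and not a site of binding.

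All 9 genes had a peak at the start in both untreated libraries, though the start of Cbx2 was itself chosen by these peaks. A gene counted as marked when a peak overlapped the window of 1 kb either side of its start by at least 1 bp. Both untreated libraries marked 32.5% of all protein-coding genes, and 32.7% of the 17491 with a promoter entry. Each neomycin library marked 7 of the 9 genes, against 33.8% of all genes in neomycin replicate 1 and 32.7% in replicate 2; untreated replicates 1 and 2 marked 46.0% and 35.4%. Ezh1, Ezh2, Ring1, Rnf2 and Cbx8 were marked in all 4 libraries, as were 15.9% of all genes, and these 5 were also the only members marked in both neomycin libraries (22.4% of all genes). Suz12 and Cbx2 lacked a peak in neomycin replicate 1, and Eed and Bmi1 lacked one in neomycin replicate 2, so the missing genes differed between the neomycin libraries. None of the 9 was marked by one group alone, untreated (4.67% of all genes) or neomycin (1.37%).

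CpG-rich starts were marked more often throughout. Of 7532 genes whose start held at least 17 CpGs, the lowest count among these genes, both untreated libraries marked 60.6% and all 4 libraries 30.8%, against 11.5% and 5.25% of the 9959 genes with fewer. Of genes marked in any library 60.3% were marked in both untreated libraries, and of the latter 49.0% were marked in all 4 and 36.6% in exactly 1 neomycin library. Of the 9 Polycomb genes 5 and 4 fell in these classes, shares near those of all such genes. With 2 libraries a group, exact relabelling of 1 value cannot give a two-sided p under 0.333, and presence was not tested.

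**Figure D1:**
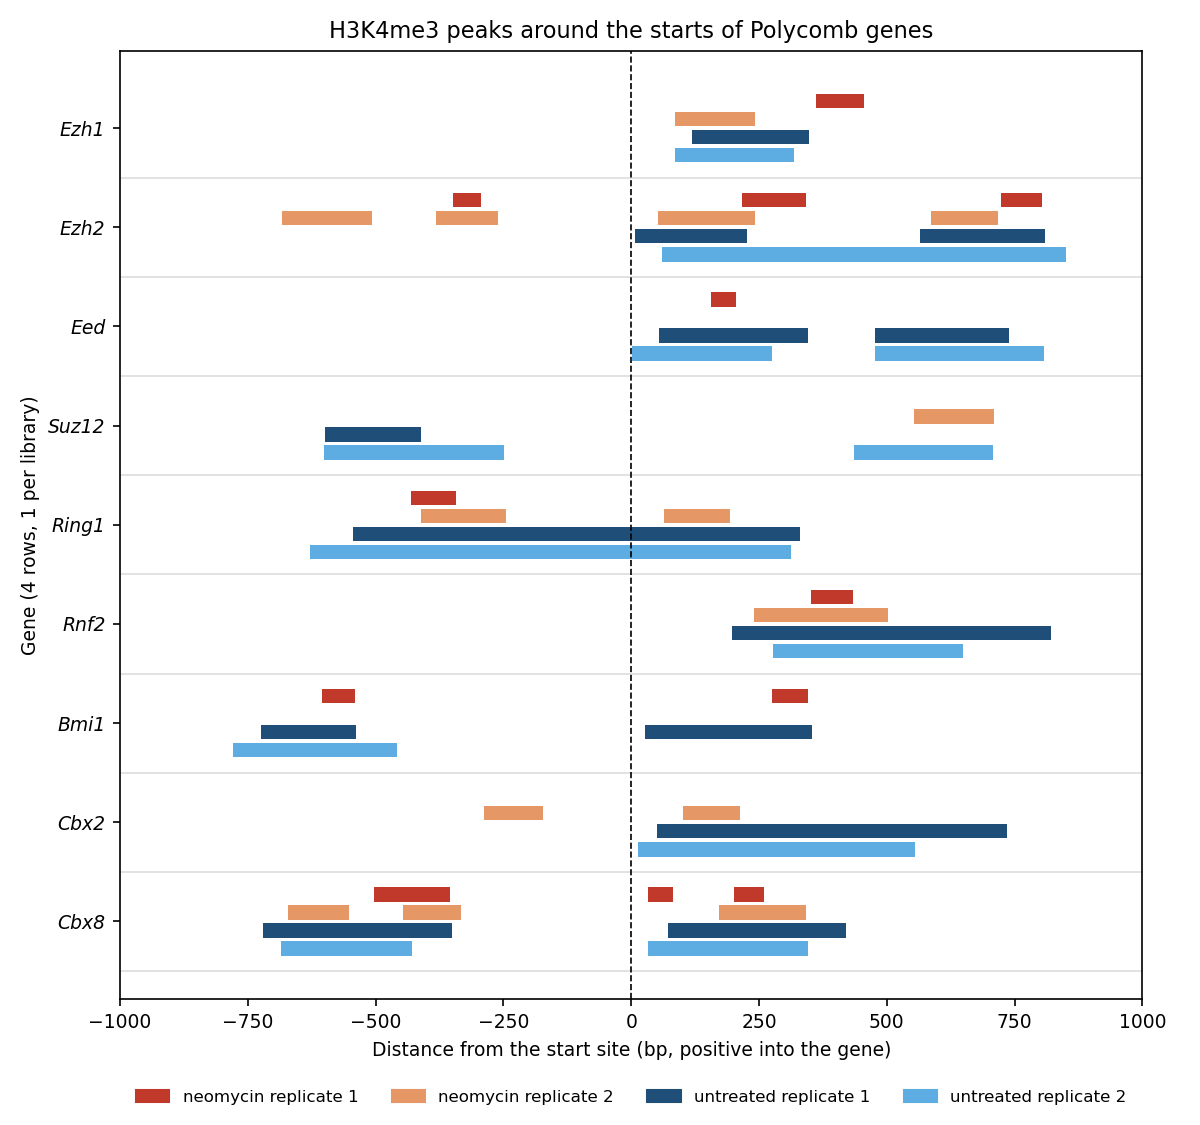
Peaks within 1 kb of the start of the 9 genes, 1 row per library, with distance from the start in bp and positive values inside the gene; bars run from the first to the last base of a peak. Peaks lie mostly between the start and 850 bp inside the gene, with a further group before the start at 6 genes besides Ezh1, Eed and Rnf2, and the start base itself is covered at Ring1 alone.

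The catalytic subunits of PRC2 had contrasting patterns. Ezh1, on chromosome 11 from 101191115 to 101226463 (minus strand), had 1 peak in each library. It measured 94 bp and 156 bp with neomycin (replicates 1 and 2) and 229 bp and 234 bp in the untreated libraries, the last being the shortest length that library contains. Its peak in neomycin replicate 1 lay 361 to 454 bp inside the gene and shared no base with the other 3, which overlapped each other and began 85 to 118 bp inside. Its pileups, the caller's signal at a peak summit, were 7 and 9 with neomycin and 16 and 9 without, so the groups touched.

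Ezh2, on chromosome 6 from 47530274 to 47595270 (minus strand), had the most peaks in any single library, and tied with Cbx8 over all 4. There were 3 and 4 in the neomycin libraries, summing to 257 and 618 bp, and 2 and 1 in the untreated libraries, summing to 464 and 791 bp. The groups overlapped in length. Of all marked genes with a promoter entry, 38.2% and 31.4% had more than 1 peak with neomycin, and 28.7% and 17.3% without. The single peak of untreated replicate 2 ran from 60 to 850 bp inside the gene and overlapped both peaks of untreated replicate 1. Peaks before the start were called with neomycin alone, at 295 to 348 bp in replicate 1 and at 262 to 381 and 509 to 684 bp in replicate 2. They lay inside the long non-coding RNA F830010H11Rik, on the plus strand from 47595209 to 47597538, which overlaps the outer end of Ezh2. Over all marked genes with an entry, 31.1% and 32.1% had a summit before the start with neomycin, and 28.1% and 23.0% without. The share with such peaks in the neomycin libraries alone was not computed. The highest pileups were 7 and 13 with neomycin and 16 and 14 without.

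Eed and Suz12, the non-catalytic core of PRC2, were each missed in 1 neomycin library. Eed, on chromosome 7 from 89954654 to 89980976 (minus strand), had 2 peaks in each untreated library, summing to 552 and 606 bp. Neomycin replicate 1 had 1 peak of 48 bp, the shortest length in that library, 157 to 204 bp inside the gene, and replicate 2 had none. That short peak lay within the first untreated peak of both libraries. Its pileup of 9 stood at percentile 79.6 of its own list, and the untreated pileups of 19 and 12 stood at percentiles 90.6 and 65.2 of theirs.

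Suz12, on chromosome 11 from 79993106 to 80034123 (plus strand), had peaks on either side of its start, in different libraries. Untreated replicate 1 had 1 peak of 187 bp before the start (413 to 599 bp away), neomycin replicate 2 had 1 of 156 bp inside the gene (553 to 708 bp), and untreated replicate 2 had both kinds, summing to 623 bp. No base was common to the 3 marked libraries. The highest pileups were 11 in neomycin replicate 2 and 11 and 10 in the untreated libraries, and the CpG-dense 300 bases printed for this start fell almost wholly in the gap, with 1 base under a peak in untreated replicate 2 and none elsewhere.

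The ubiquitin ligase genes of PRC1 were marked in all 4 libraries. Ring1, on chromosome 17 from 34020792 to 34024680 (minus strand), had the longest single peaks of the group, 874 and 940 bp in the untreated libraries. These ran from 544 and 628 bp before the start to 329 and 311 bp inside the gene, and took in the whole of the printed 300 bases. With neomycin the same stretch held 1 peak of 88 bp (replicate 1) and 2 peaks that summed to 296 bp (replicate 2), all within the untreated peaks. In every library the peaks before the start overlapped the microRNA genes Mir219a-1, from 34024983 to 34025092, and Mir219c, from 34025012 to 34025071. Mark of Ring1 and of these genes cannot be told apart there. The highest pileups were 8 and 13 with neomycin and 17 and 14 without.

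Rnf2, on chromosome 1 from 151469398 to 151500991 (minus strand), had 1 peak per library, inside the gene each time. The lengths were 82 and 263 bp with neomycin and 624 and 372 bp without, with pileups of 6 and 10 against 16 and 12. All 82 bp of the shortest peak were common to the 4 libraries, so the shortest peak lay within the other 3, unlike at Ezh1. The untreated values were above the neomycin values in both measures, as deposited, which was also so at Ring1. Of all genes marked in all 4 libraries, 80.2% had this order in length and 42.9% in pileup. The share with both was not computed.

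Bmi1, which encodes the ring finger partner of these ligases, lies on chromosome 2 from 18677018 to 18686629 (plus strand). Peak bases came to 135 bp in neomycin replicate 1, 515 bp in untreated replicate 1 and 322 bp in untreated replicate 2, with no peak in neomycin replicate 2. Each of the 3 marked libraries had a peak before the start, reaching 605 bp (neomycin replicate 1), 725 bp and 780 bp (untreated) away, in the gap of 787 bp that parts Bmi1 from the upstream gene Commd3. Neomycin replicate 1 and untreated replicate 1 also had a peak 26 to 353 bp inside the gene, where untreated replicate 2 had none. Untreated replicate 2 had instead a peak of 234 bp and pileup 7 lying 3985 to 4218 bp inside the gene, the 1 peak of 52 in these genes that was not at a start. The pileup of 19 at the inner peak of untreated replicate 1 equalled the highest of any member.

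The chromodomain genes Cbx2 and Cbx8 are neighbours on chromosome 11. Cbx2, from 119023019 to 119031275, had 2 peaks summing to 225 bp in neomycin replicate 2, none in replicate 1, and single peaks of 685 and 543 bp in the untreated libraries. All of these lay within the long non-coding RNA Gm35829, from 119011305 to 119023839, so their assignment to Cbx2 is shared. The highest pileups were 11 in neomycin replicate 2 and 16 and 19 in the untreated libraries, the last at percentile 96.3 of its list. Cbx8 lies from 119036303 to 119040913 (minus strand). In each neomycin library it had 3 peaks, summing to 255 and 403 bp. Each untreated library had 2, summing to 719 and 569 bp. Over all marked genes, too, more than 1 peak was called more often with neomycin, as given for Ezh2. In every library Cbx8 had a peak before the start, between 334 and 721 bp away, and a peak inside the gene, and the highest pileups were 7 and 15 with neomycin and 16 and 13 without.

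**Figure D2:**
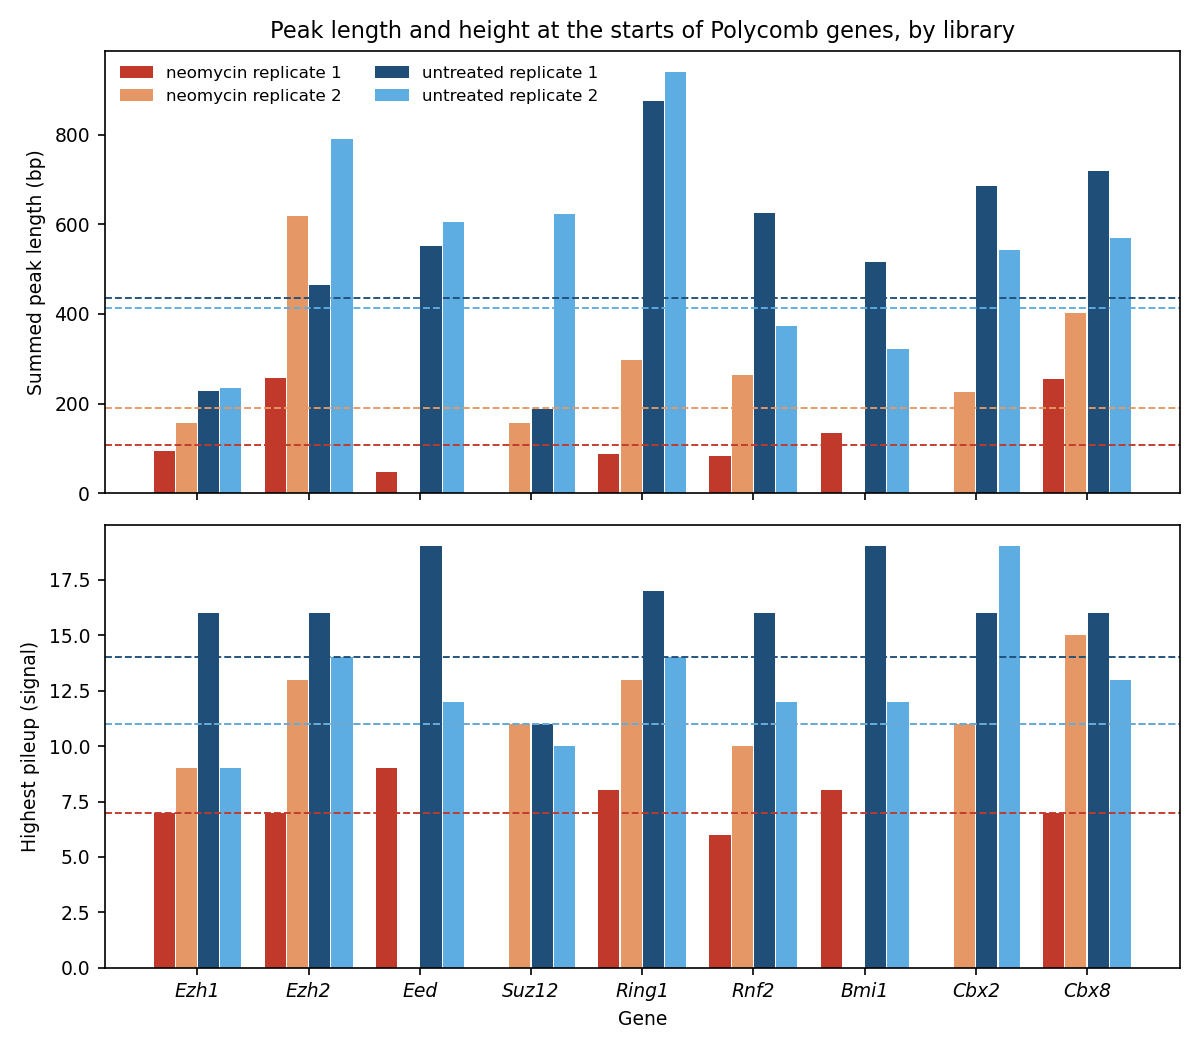
Summed length in bp (top) and highest pileup (bottom) of the peaks at each start, 1 bar per library; a missing bar means no peak, and dashed lines give each library's median over all marked genes with a tabled start. Untreated bars reach 229 bp or more except at Suz12 (187 bp), and the median pileup lines of neomycin replicate 2 and untreated replicate 2 coincide at 11.

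Peak length followed the library at these genes as it did across all peaks. In the order neomycin replicate 1, neomycin replicate 2, untreated replicate 1, untreated replicate 2, the shortest peak in each list was 48, 110, 187 and 234 bp, and the median was 70, 142, 310.5 and 340 bp. The 12, 14, 13 and 12 peaks at the 9 starts had medians of 75, 144, 290 and 326.5 bp, near those of the lists, and 6 of the 51 were at their library's shortest length. Of the 5 genes marked in all 4 libraries, 4 had longer summed peaks in both untreated libraries than in either neomycin library, which held for 80.2% of all genes marked in all 4. Ezh2 was the exception, and none of the 5 was longer in both neomycin libraries (0.344% of all genes). The part of the libraries' own peak lengths in these differences was not tested.

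Relative to each library's median over the 3484 genes marked in all 4, the order changed. Ring1 stayed longer in both untreated libraries (20.9% of all genes did), with values of -0.48 and 0.35 against 0.64 and 1.02 on the log2 scale, while Ezh1, Ezh2 and Cbx8 were shorter there (19.4% of all genes) and Rnf2 overlapped. Ezh2 had 1.06 and 1.41 with neomycin against -0.27 and 0.77, and Cbx8 had 1.05 and 0.80 against 0.36 and 0.30. In limma on these values, fitted over all 3484 genes with Benjamini-Hochberg adjustment, none of the 5 passed an adjusted p of 0.05. Neomycin minus untreated was 0.99 for Ezh2 (SE 0.62, adjusted p 0.643) and -0.90 for Ring1 (SE 0.61, adjusted p 0.702). The 95% intervals ran from -0.27 to 2.25 for Ezh2 and from -2.14 to 0.35 for Ring1, so changes of more than 4-fold in these directions were not excluded. Without untreated replicate 1 the Ezh2 difference was 0.44, and without neomycin replicate 1 that of Ring1 was -0.45. Ezh1 (0.66), Cbx8 (0.60) and Rnf2 (-0.12) had adjusted p values of 0.770, 0.805 and 0.972. The median of the 5 was 0.60, against 0.01 over all genes tested.

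No gene of the 3484 passed in that comparison (0.0% in either direction), although 334 had an unadjusted p under 0.05. The count rose to 122 without neomycin replicate 1 and to 344 without neomycin replicate 2, with more genes then tested, and no member was among them. Without centring, 1130 genes passed, all shorter with neomycin, and the median over all genes was -1.59; Ring1 was then among them (-2.49, adjusted p 0.0226), while Ezh1, Ezh2 and Cbx8 turned negative. Genes missed in 1 neomycin library could be fitted without that library, the lone one being assumed to vary like the others. Eed then had a difference of -1.53 (SE 0.59, limma adjusted p 0.0892), Bmi1 0.47, Cbx2 -0.28 and Suz12 0.03, and none passed.

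Once each library was centred, log2 pileup differed less between groups than log2 length at Ezh1, Ezh2, Ring1 and Cbx8. At Rnf2 pileup differed more than length (-0.32 against -0.12). As deposited, the highest pileup was above both neomycin values in both untreated libraries at Ezh2, Ring1 and Rnf2, against 42.9% of all genes marked in all 4, and the groups overlapped at Ezh1 and Cbx8; the reverse held at none (0.0861% of all genes). After centring on the library medians of 8, 11, 15 and 12, this held at Rnf2 alone (18.9% of all genes). In limma the 5 differences in log2 pileup lay between -0.32 (Rnf2, SE 0.26, adjusted p 0.792) and 0.02 (Cbx8, SE 0.26, adjusted p 0.975), with a median of -0.08 against -0.01 over all genes. None passed, as none of the 3484 genes did (0.0%, with 255 at an unadjusted p under 0.05). Ranked by the caller's q within its own list, the best peak of a marked Polycomb gene stood at a median percentile of 53.0 and 57.9 with neomycin. Without neomycin the medians were 79.6 and 74.4. Each rank set the best of a start's peaks against all single peaks of the list, and the same rank was not computed for other genes. The members that stood lowest were Rnf2 in neomycin replicate 1, at percentile 3.15, and Ezh1 in untreated replicate 2, at 6.32.

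**Figure D3:**
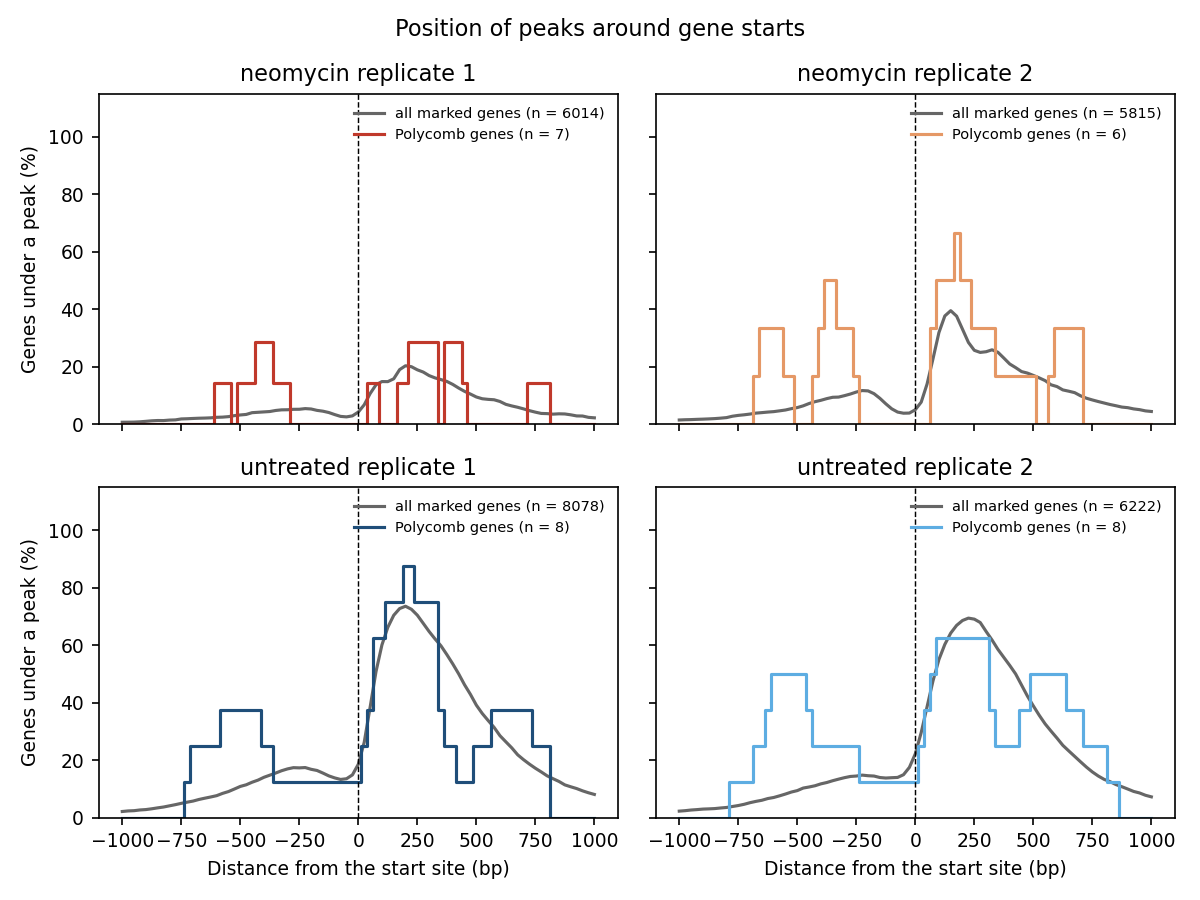
Share of genes under a peak (percent) by distance from the start in bp, for all marked genes with a tabled start (grey) and for the Polycomb genes with one (coloured steps), 1 panel per library. Each curve over all genes peaks inside the gene and is low at the start base, where 4.26% and 5.07% of marked genes are covered with neomycin and 18.6% and 22.3% without.

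The peaks sat beside the start rather than on it. Of 51 peaks at the 9 starts, 33 had their summit inside the gene, at a median of 248 bp, and 18 had it before the start, 210 to 655 bp away. The start base lay under a peak at Ring1 alone, in both untreated libraries. Of the printed 300 bases, those of Ring1 were covered in full there, while at the other 7 starts with an entry at most 49 bases were covered in any library. Summits before the start occurred at 4 of 7 marked genes with an entry in neomycin replicate 1, 3 of 6 in replicate 2, and 4 of 8 in each untreated library. Over all marked genes the shares were 31.1%, 32.1%, 28.1% and 23.0%. Ring1 and Cbx8 had one in every library, Bmi1 in 3 libraries, Ezh2 in the neomycin libraries and Suz12 in the untreated libraries. With so few genes this is a description.

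At 7 of the 9 starts, a base was common to the peaks of every library that marked the gene. Bases common to all 4 libraries numbered 9 at Ezh2, 69 at Ring1, 82 at Rnf2 and 76 at Cbx8, and 0 at Ezh1; 41.3% of all genes marked in all 4 had such a base. Among genes marked in 3 libraries, the common bases were 48 at Eed, 64 at Bmi1, 110 at Cbx2 and 0 at Suz12. A base common to 3 libraries is a looser condition, and its share over all genes was not computed. Peaks of some libraries still overlapped at Ezh1 and Suz12, where the untreated libraries shared 201 and 187 bases.

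Of 45 other genes of the Polycomb system, 41 were marked in at least 1 library, against 53.9% of all genes. Both untreated libraries marked 31 of them and all 4 libraries 13, against 32.5% and 15.9% of all genes. Of 10 other PRC2 genes, 7 were marked in both untreated libraries and 3 in all 4. Of 24 other PRC1 genes the counts were 17 and 8, and of 11 genes of opposing enzymes, which remove H3K27me3 or the ubiquitin on histone H2A, and of their partners, they were 7 and 2. Among the 45, 7 (15.6%) were untreated only, that is, marked in both libraries of that group and in none with neomycin, against 4.67% of all genes, and 0 had the reverse. As a share of the 31 marked in both untreated libraries this was 22.6%, against 14.4% of all genes so marked. The 7 were Phf19, Epop and Lcor of PRC2, Phc3 and E2f6 of PRC1, and the deubiquitinase Usp16 and the forkhead factor Foxk2 among the opposing genes. The lists were drawn up with earlier results for Lcor known.

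Lcor, whose locus also gives rise to a PRC2 accessory subunit, had the longest median domain of the other PRC2 genes. It had 1053 and 1454 bp of peaks without neomycin. Among other PRC1 genes the longest median was at Pcgf3, a Bmi1 paralogue, with 376 and 112 bp with neomycin and 824 and 787 bp without. Among the opposing genes it was at Kdm6a, which encodes an H3K27 demethylase, with 70 and 521 bp against 1194 and 764 bp. Of the 13 genes of these lists marked in all 4 libraries, none passed the limma test of length or pileup (0.0% of all genes tested).

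Of 16 genes known as targets of Polycomb repression, among them Cdkn2b, Pax6, Olig2, Cdx2, Foxa2, Hoxa9 and Neurog1, 4 had a peak at the start in at least 1 library, against 53.9% of all genes, and 0 had one in all 4, against 15.9%. Lhx2, a LIM homeobox gene, was marked in the untreated cells alone, with 212 and 324 bp. Cdkn2a, the locus of the cell cycle inhibitors p16 and ARF and a classic target of BMI1, had 128 bp in neomycin replicate 2 and 600 bp in untreated replicate 1. Hoxd13 was marked in untreated replicate 1 alone, and Gata6 in neomycin replicate 1 alone.

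**Figure D4:**
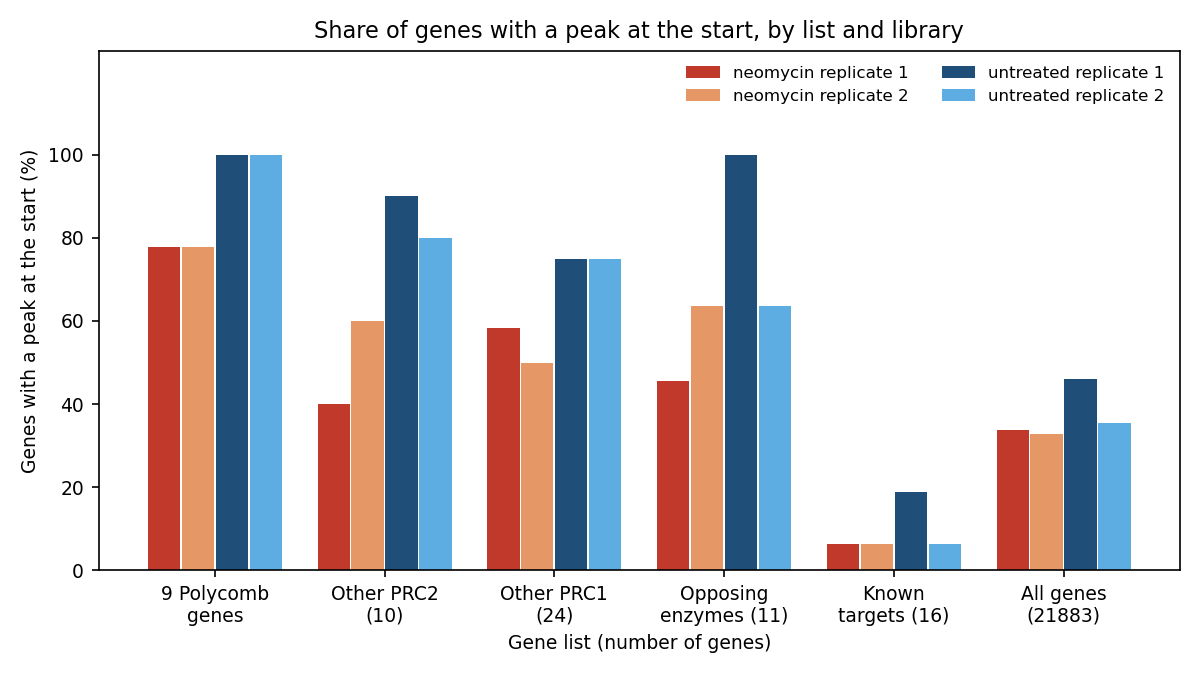
Percent of genes with a peak at the start in each library, for the 9 Polycomb genes, other PRC2 and PRC1 genes, opposing enzymes, known targets and all protein-coding genes, with the number of genes in brackets. The 9 genes stand at 77.8% in both neomycin libraries and 100.0% in both untreated libraries, and the targets at 6.25% to 18.8%.

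Across the series, the lists held 14203 and 11545 peaks with neomycin and 15938 and 10520 without, and carry no read totals, so depth is unknown. Markers of the labelled cells were mostly marked, with 8 of 10 supporting cell genes (Lgr5, Sox9, Prox1, Fgfr3, Hes5, Jag1, Cdkn1b and Slc1a3) in all 4 libraries, against 15.9% of all genes. Hair cell genes were marked in 2, 1, 6 and 1 of 10, in the same order of libraries. Neuron and glia genes gave 2, 4, 6 and 3 of 8, mesenchyme 1, 0, 3 and 3 of 8, and blood and endothelium 1, 0, 1 and 0 of 8, with the defining blood genes Ptprc and Spi1 without a peak at the start in any library. All genes stood at 33.8%, 32.7%, 46.0% and 35.4% in these libraries. Neuron and glia genes lay above those shares in neomycin replicate 2 and both untreated libraries, and below in neomycin replicate 1. Hair cell genes lay above in untreated replicate 1 alone, mesenchyme in untreated replicate 2 alone, and blood and endothelium in no library. The part of cells other than supporting cells in the values above was not tested.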

How the data were processed

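The deposited file of each H3K4me3 library lists its own peaks; the 2 input libraries were not analysed here. CASAVA 1.4, Bowtie2, MACS2, deepTools and the mm10 build are named in the submitters' processing notes, without roles or parameters. Per the file headers, the authors' lists hold each peak's position, length and pileup signal, a fold enrichment (a ratio), and p-values and q-values as -log10. No read totals are listed.

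Starts came from RefSeq promoter entries for 17491 of 21883 genes, taking the outermost where a gene had several; the remaining genes used the gene end with peaks in more libraries, then with more peak bases. Summed peak length and highest pileup were log2-transformed, shifted to a common library median and fitted in limma 3.58.1 (R 4.3.3). The same fit was also run on simulated data, with results not given here. Other steps used Python 3.11.15 and pandas 2.3.3. Members and lists were chosen with earlier results of these data known. Named were all 9 members and, from each other Polycomb list, genes marked in 1 group alone, genes past the limma threshold and the gene with the longest median domain; the other targets and markers named were chosen after their values were seen.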

Additional observations from a re-analysis of the deposited data

How the results depend on the processing

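All 9 genes remained marked in both untreated libraries with windows of 0.5 or 2.5 kb, as were 30.1% and 33.9% of all genes. This also held with the gene plus 1 kb (36.7% of all genes) and with lists of equal length (27.4%). Equal lists lost Rnf2 in neomycin replicate 1, leaving 4 genes marked in all 4 (10.9% of all genes) and in both neomycin libraries (17.1%). Keeping only peaks whose -log10 q reached 10, 4 genes were marked in both untreated libraries (6.59% of all genes). Both neomycin libraries marked 0 (0.0046% of all genes), and all 4 libraries together marked 0 (0.0%). At this cutoff the 4 genes counted as untreated only, as did 6.45% of all genes, nearly all of the 6.59% above. Requiring 200 bp under peaks in the window, 8 were marked in both untreated libraries (30.6% of all genes) and 2 in all 4 (2.09%). In both neomycin libraries 2 were marked (2.62% of all genes), and in the untreated cells alone 3 (17.6%). With the window of 0.5 kb 1 gene was untreated only, against 6.36% of all genes. Leaving out 1 library gave 0 to 2 untreated-only genes. Without neomycin replicate 1 there were 2 (Suz12 and Cbx2), against 11.1% of all genes. Without neomycin replicate 2 there were 2 (Eed and Bmi1), against 10.2%. Without untreated replicate 1 or 2 there were 0, against 5.74% and 8.70%.

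Counts of genes past the limma threshold for length were 0 to 344 when 1 library was left out (122 without neomycin replicate 1, 344 without replicate 2, 0 without either untreated library), and 1130 without centring. For pileup, 1 gene passed when fold enrichment took its place, and 0 to 0 when 1 library was left out. The cause was not tested. Without centring, log2 length differences turned to -0.997 at Cbx8, -0.93 at Ezh1 and -0.60 at Ezh2, and the pileup difference to -0.49 at Cbx8. Rnf2 length turned to 0.030 over genes marked in any library with a pseudocount of 100 bp, and Ezh1 to 0.36 when fold enrichment replaced pileup. With 1 library left out, length ran from -0.49 to 0.29 at Rnf2, from 0.44 to 1.43 at Ezh2, from -1.30 to -0.45 at Ring1, from 0.48 to 0.76 at Ezh1 and from 0.48 to 0.74 at Cbx8, and pileup from -0.33 to 0.17 at Ezh1, from -0.22 to 0.083 at Ezh2, from -0.10 to 0.040 at Ring1 and from -0.17 to 0.34 at Cbx8. None of these reversed values passed the threshold.

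Replicate numbers are shared between groups but the labels do not say that they pair libraries, and deviations of same-numbered libraries were uncorrelated over genes (-0.02 for length, -0.01 for pileup). With the replicate number as a block, 0 genes passed for length and 0 for pileup. With the stricter q the length and pileup comparisons were not run, as 0 genes were then marked in all 4 libraries. Restricting the genes to those with a tabled start, an alternative chosen after seeing the data, gave 0 calls in both. A peak that is missing is one not called at an unknown depth, not an absent mark.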
